A study of Danio rerio with 6 samples.

Results

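Regions of open chromatin found in every control library and in only some of the wt1b-overexpressing libraries were examined in zebrafish cardiomyocytes. Peaks of the 6 libraries on chromosomes 1 to 25 that shared at least 1 bp were merged into regions. A region was included if it held a peak of all 3 control libraries and of exactly 1 or exactly 2 wt1b-overexpressing libraries. Of 71293 regions in all, 1578 (2.21%) met this rule. Of these, 792 were kept in 2 wt1b-overexpressing libraries and 786 in 1. These counts depend on list length: with all 6 lists cut to the 4091 peaks of the shortest, 159 regions were kept in 2 and 70 in 1. The peak calls of both lines chose these regions, so their presence or absence in a library is a description and was not tested.

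Each library was made from sorted GFP-positive cells of AB larvae aged 5 days after fertilisation, which the labels call cardiomyocytes. The wt1b-overexpressing larvae, called wt1b_OE here, carried the UAS transgene Tg(eGFP:5xUAS:wt1b; gcryst:cerulean)cn15 together with the driver Tg(myl7:Gal4)cbg2Tg, with 3 libraries. The control larvae carried Tg(eGFP:5xUAS:RFP; gcryst:cerulean)cn15 together with the same driver, also with 3 libraries. Both lines thus carried the Gal4 driver under the promoter of myl7, a heart muscle myosin light chain gene, the GFP reporter and the gcryst:cerulean cassette. They differed in the gene placed under the UAS sites, wt1b or the red fluorescent protein RFP. The labels do not say how many larvae went into a library or whether the libraries of a line came from separate clutches, so the spread between libraries may be technical. The identity of the sorted cells was not checked against marker genes, because no gene annotation in the coordinates of the files was used here.

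ATAC-seq marks DNA that the transposase Tn5 can reach, mostly promoters, enhancers and other nucleosome-poor sites. wt1b encodes a zinc-finger transcription factor of the WT1 family, which binds GC-rich DNA and can act as an activator or a repressor depending on its partners. In the heart, WT1 proteins are known from the epicardium, the outer cell layer, whereas myl7 is a gene of the contracting muscle cells. Forcing wt1b on from a myl7-driven Gal4 therefore places an epicardial factor in heart muscle cells.

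The 3 wt1b_OE lists held 9310, 4122 and 4091 peaks, against 29887, 29561 and 23334 peaks in the 3 control lists. Every control list was longer than every wt1b_OE list, and wt1b_OE replicate 1 had more than both other wt1b_OE lists together. Read depth is unknown, and the part that depth or list length plays in the absence of a peak cannot be told apart from the part of the transgene. The strength of a peak is given as an area, its score multiplied by its width and divided by 1000. The labels do not say what the score measures, and the name area rests on the values, in which this product had a common minimum among peaks under the score limit. Scores were limited to 1000, held by 35.4% to 42.7% of wt1b_OE peaks and 20.5% to 35.4% of control peaks, so the area of those peaks is taken as a lower value. Areas served to rank the peaks of a list among themselves and are given as a percentile of that list, with 100 for the strongest peak.

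Partial keeping was common among regions called in every control library. Of 3453 such regions, 588 (17.0%) had no wt1b_OE peak, 786 (22.8%) had a peak in 1 wt1b_OE library, 792 (22.9%) in 2 and 1287 (37.3%) in all 3. Members thus made up 45.7% of the regions of all 3 control libraries. Keeping was rarer where fewer control libraries had a peak. At least 1 wt1b_OE library had a peak in 83.0% of the regions of all 3 control libraries, in 38.9% of the 6252 regions of exactly 2 and in 3.97% of the 57972 regions of exactly 1. The control libraries also set the size of the set. Without control replicate 1, 1207 regions were kept in 2 libraries and 1708 in 1. Without control replicate 2 the counts were 892 and 1060, and without control replicate 3 they were 922 and 1104. In the 792 members kept in 2, control replicates 1, 2 and 3 had the lowest percentile in 313, 213 and 266. In the 786 kept in 1, these counts were 319, 210 and 257. Percentiles of the members do not show which regions enter when a library is left out.

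The longest wt1b_OE list, that of replicate 1, kept by far the most members. Of the 792 regions kept in 2 libraries, 404 (51.0%, exact 95% interval 47.5% to 54.5%) were kept by replicates 1 and 3. Another 344 (43.4%, 39.9% to 47.0%) were kept by replicates 1 and 2, and 44 (5.56%, 4.07% to 7.39%) by replicates 2 and 3. Of the 786 regions kept in 1 library, 631 (80.3%, 77.3% to 83.0%) were kept by replicate 1. Replicate 2 alone kept 89 (11.3%, 9.19% to 13.7%) and replicate 3 alone 66 (8.40%, 6.55% to 10.6%). Over both grades, replicate 1 had a peak in 87.4% of the members, replicate 2 in 30.2% and replicate 3 in 32.6%. The rule of exactly 1 or 2 keepers spreads these shares. Over all 3453 regions of the 3 control libraries they were 77.2%, 51.1% and 52.2%, and 56.7% in replicate 1 with its list shortened as described next. The intervals are Clopper-Pearson intervals and cover the counting error of regions only.

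The list of wt1b_OE replicate 1 was then reduced to the 4122 peaks of largest area, as many as replicate 2 had, which left 44.3% of it. For the 42.7% of its peaks at the score limit, area is a lower value equal to the width. The cut could therefore drop narrow peaks whose true strength was not recorded. The 3 libraries now kept members in more even numbers, with 773 regions kept in 2 libraries and 723 in 1. Among those kept in 2, 288 (37.3%) were kept by replicates 1 and 3, 247 (32.0%) by replicates 2 and 3, and 238 (30.8%) by replicates 1 and 2. Among those kept in 1, replicate 1 still kept the most, 346 (47.9%, exact 95% interval 44.2% to 51.6%). Replicate 2 alone kept 195 (27.0%, 23.8% to 30.4%) and replicate 3 alone 182 (25.2%, 22.0% to 28.5%). These intervals also cover the counting error of regions only and are no test between libraries.

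Shortening moved regions down a grade rather than only out of the set. Of the 631 regions that replicate 1 alone had kept, 346 stayed so, 284 lost their last wt1b_OE peak and 1 no longer counted as a region of all 3 control libraries. Of the regions kept by replicates 1 and 2, 106 of 344 were left to replicate 2 alone. Of those kept by replicates 1 and 3, 116 of 404 were left to replicate 3 alone. In turn, 203 regions that all 6 libraries had shared entered the set as kept by replicates 2 and 3. Regions without any wt1b_OE peak then numbered 872 (25.3% of 3452).

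**Figure D1:**
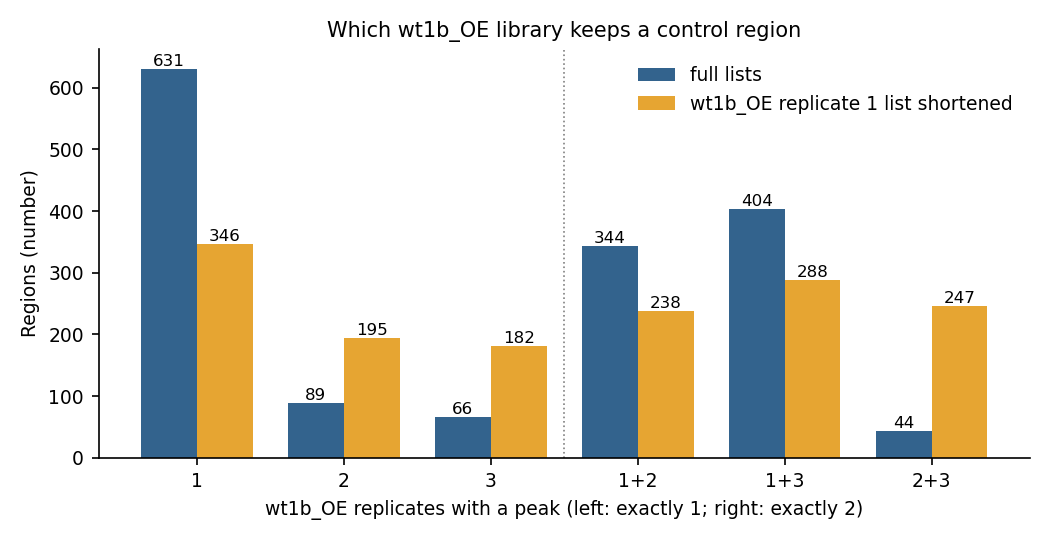
Number of regions of all 3 control libraries kept by each set of wt1b_OE replicates, for exactly 1 library on the left and exactly 2 on the right. Blue bars are full lists, in which replicate 1 alone holds 631 regions, and orange bars are lists with replicate 1 shortened to 4122 peaks, where it holds 346.

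Regions kept by one wt1b_OE library were kept more often by another than control regions in general. Over all 3453 regions of all 3 control libraries, 77.2% had a peak of wt1b_OE replicate 1, 51.1% of replicate 2 and 52.2% of replicate 3. Of the 2666 with a peak of replicate 1, 61.2% also had one of replicate 2 and 63.4% one of replicate 3. Of the 1764 with a peak of replicate 2, 92.5% also had one of replicate 1 and 75.5% one of replicate 3. Of the 1801 with a peak of replicate 3, 93.9% also had one of replicate 1 and 73.9% one of replicate 2. With replicate 1 shortened, 56.7% of all such regions had a replicate 1 peak, as did 74.9% of those with a peak of replicate 2 and 76.2% of those with a peak of replicate 3. These shares describe the calls that also define the members and were not tested. Keeping by each wt1b_OE library also rose with control strength, as given further below, and the shares here are not adjusted for it.

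A region that a library lacked had a peak of that library within 1000 bp in a minority of cases. The share to be expected from the list lengths alone was not computed. In the 631 regions that wt1b_OE replicate 1 alone kept, replicate 2 had a peak within 1000 bp of the region in 14 (2.22%) and replicate 3 in 23 (3.65%). The median distance to the nearest peak was 75.1 kb in replicate 2 and 81.2 kb in replicate 3. In the 89 regions that replicate 2 alone kept, replicate 1 had a peak within 1000 bp in 7 (7.87%), and in the 66 that replicate 3 alone kept, in 8 (12.1%). In regions kept in 2 libraries, the missing library had such a peak in 5.23% (replicate 3), 3.22% (replicate 2) and 6.82% (replicate 1). In the 588 regions without any wt1b_OE peak, the share was 4.76% for replicate 1, 2.04% for replicate 2 and 2.89% for replicate 3.

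In the control libraries, regions kept in 2 wt1b_OE libraries had wider and higher-ranking peaks than regions kept in 1. The median width of the strongest peak per region, for regions kept in 2 and in 1, was 448 and 426 bp in control replicate 1. In control replicate 2 it was 494.5 and 434 bp, and in control replicate 3 it was 524.5 and 492 bp. All 3 control libraries differed in the same direction, by 38.3 ± 19.9 bp (SD, n = 3). By an exact two-sided sign-flip permutation test p was 0.25. Because 3 libraries allow none smaller, this test cannot decide whether the grades differ. A wider control peak leaves more bases for a wt1b_OE peak to overlap, so the width is not independent of the rule. With overlap judged on the central 200 bp of each peak, the difference was 44.7 bp, positive in all 3 control libraries.

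The strength percentile showed the same order with less spread. Its median, for regions kept in 2 and in 1, was 81.5 and 74.6 in control replicate 1, 87.5 and 80.0 in control replicate 2 and 84.9 and 78.3 in control replicate 3. The difference was 6.96 ± 0.467 percentile points (SD, n = 3), positive in 3 of 3 libraries (exact two-sided sign-flip permutation p = 0.25, the smallest possible). With Benjamini-Hochberg adjustment over these 2 tests, both p-values remain 0.25, and neither test can decide. With overlap judged on the central 200 bp of each peak, the difference was 7.40 points. The percentile is not independent of the rule either, since it rests on area. The 2 measures are not separate evidence, because area contains the width and equals it for peaks at the score limit. From 40.8% to 79.7% of the control peaks were at this limit, by library and grade. Each difference is small beside the range over single regions. In control replicate 2, for example, the middle 50% of regions ran from percentile 70.1 to 94.8 for those kept in 2, and from 59.3 to 91.0 for those kept in 1.

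The 2 grades lay between regions that no wt1b_OE library kept and regions that all 3 kept. The mean of the library medians of the percentile was 65.7 ± 3.29 for regions without a wt1b_OE peak, 77.6 ± 2.74 for those kept in 1, 84.6 ± 2.99 for those kept in 2 and 93.3 ± 0.561 for those kept in 3 (SD, n = 3 control libraries each). Median width followed this order in each control library, with means of 416 ± 36.4, 451 ± 36.0, 489 ± 38.5 and 595 ± 65.8 bp. The share of control peaks at the score limit was 42.3% ± 9.97, 54.3% ± 14.2, 65.2% ± 14.3 and 82.3% ± 10.1 in the same order.

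**Figure D2:**
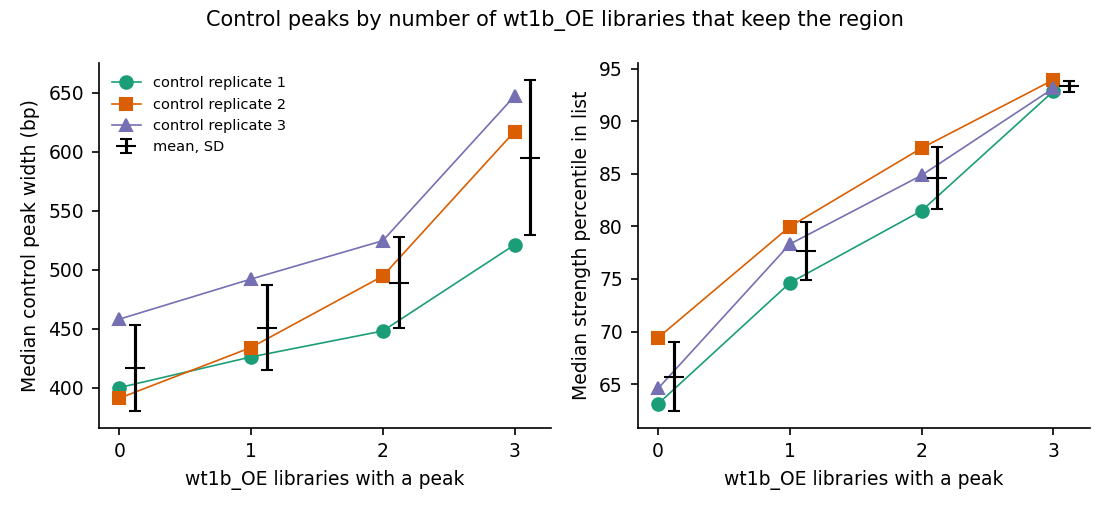
Median width in bp (left) and median strength percentile (right) of the strongest control peak per region, against the number of wt1b_OE libraries with a peak. Coloured points are the 3 control libraries, and black bars are their mean and SD; every control library climbs from 0 to 3 wt1b_OE libraries in both panels.

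Members of both grades spread widely over control strength. The 3453 regions were divided into 10 classes of nearly equal size by their mean control percentile. In class 1, the weakest, 44.8% had no wt1b_OE peak, 27.5% were kept in 1 library, 19.1% in 2 and 8.67% in 3. In class 10 the shares were 0.289%, 4.62%, 11.8% and 83.2%. Regions kept in 2 libraries were most frequent in class 5 (30.6%), and regions kept in 1 were most frequent in class 2 (37.1%).

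Members of either grade were found in every class, from 55.9% of class 3 down to 16.5% of class 10. Among the 100 regions of best mean control rank, 99 were kept in all 3 wt1b_OE libraries and 1 was kept in 2. Among the best 1000, 26 were kept in no library, 107 in 1, 189 in 2 and 678 in 3. The share of regions with a peak of wt1b_OE replicate 1 was 49.4% in class 1 and 98.6% in class 10. For replicates 2 and 3 these shares were 20.8% and 21.4% in class 1, and 89.6% and 89.9% in class 10.

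**Figure D3:**
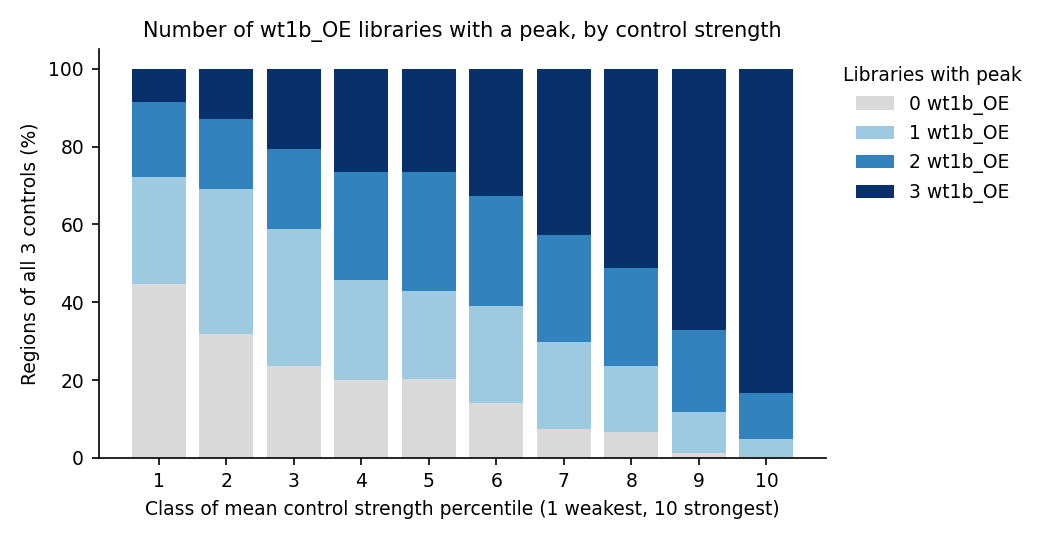
Share of regions of all 3 control libraries, in percent, with a peak in 0, 1, 2 or 3 wt1b_OE libraries, in 10 classes of mean control strength percentile from weakest (1) to strongest (10). The pale and middle blue parts are the members, 55.9% of class 3 and 16.5% of class 10.

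Within each wt1b_OE list, peaks of regions kept in 2 libraries had a higher median rank than peaks of regions kept in 1. In wt1b_OE replicate 1, the median percentile of the kept peak was 73.8 for regions kept in 2 libraries (middle 50% from 50.6 to 87.2) and 59.5 for regions kept in 1 (38.4 to 77.4). In replicate 2 the medians were 53.5 and 44.8, and in replicate 3 they were 54.2 and 44.6. Peaks of regions shared by all 6 libraries had medians of 86.4, 76.0 and 76.0 in replicates 1, 2 and 3. In each wt1b_OE list the median was highest for regions that all libraries shared, followed by those kept in 2 and those kept in 1. These percentiles come from lists of different length and are not compared between libraries.

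Part of the kept peaks were under the score limit with an area under 300. The smallest area among peaks under the limit was 199.8 over the 6 lists. Over all peaks, those at the limit included, the median area was 303, 279 and 297 in wt1b_OE replicates 1, 2 and 3. An area under 300 is thus common in these lists and does not mark a peak as close to the minimum. Peaks at the limit can have a smaller product, but their true strength was not recorded, so they were not counted here. In wt1b_OE replicate 1, 73 of 748 kept peaks (9.76%) were under the limit with an area under 300 in regions kept in 2 libraries, and 122 of 631 (19.3%) in regions kept in 1. In replicate 2 the counts were 154 of 388 (39.7%) and 33 of 89 (37.1%), and in replicate 3 they were 134 of 448 (29.9%) and 31 of 66 (47.0%). For regions shared by all 6 libraries, the shares were 2.49%, 14.3% and 12.3% in replicates 1, 2 and 3. The same share over all peaks of each wt1b_OE list was not computed. Whether the kept peaks differ from their whole list in this share therefore cannot be read.

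**Figure D4:**
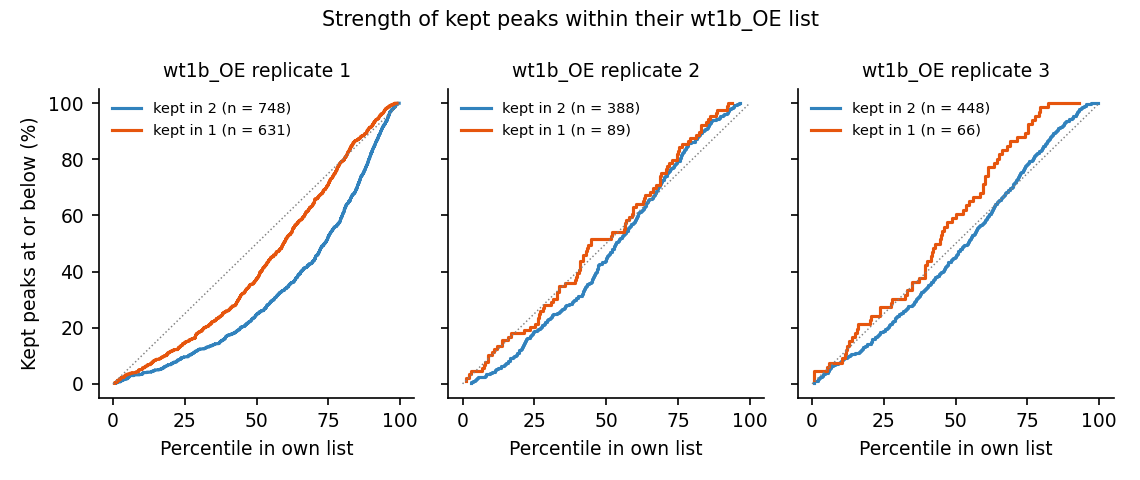
Cumulative share of kept peaks, in percent, against their strength percentile within their own wt1b_OE list, for regions kept in 2 libraries (blue) and in 1 (orange). The dotted line is a list without preference. At the median, both curves of replicate 1 lie to its right, at 73.8 and 59.5. Among the strongest peaks, the orange curve of replicate 1 crosses to its left.

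The kept peaks of wt1b_OE replicates 2 and 3 were narrower at the median than the mean width of the 3 control peaks in the same regions. In regions kept in 2 libraries, the median width of the kept peak was 494, 407 and 429 bp in wt1b_OE replicates 1, 2 and 3. The mean control width of the same regions had a median of 499.5, 515 and 500.3 bp. The median ratio of the kept to the control width was 0.957, 0.785 and 0.854 in replicates 1, 2 and 3 for regions kept in 2 libraries, and 0.933, 0.838 and 0.859 for those kept in 1. Regions shared by all 6 libraries gave ratios of 0.974, 0.793 and 0.844, so the narrower peak was not confined to partly kept regions. Over all regions kept in 2, single control libraries had median widths of 448 to 524.5 bp. Over those kept in 1 they had 426 to 492 bp, and the kept peaks had medians of 433, 362 and 423 bp in wt1b_OE replicates 1, 2 and 3. No ratio of a single control library to the mean control width was computed, so the part of the measure cannot be read.

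Peaks of one region are joined by overlap, directly or through other peaks, which limits how far apart their centres can lie. The distances are therefore a description of the members and no independent finding. The absolute distance from the centre of the kept peak to the mean centre of the control peaks had medians of 65.8 to 73.5 bp over the 3 wt1b_OE libraries in regions kept in 2, and 69.9 to 72.3 bp in regions kept in 1. Taken pair by pair, a wt1b_OE and a control centre were a median of 82.2 to 100.2 bp apart in regions kept in 2 and 72.5 to 109 bp apart in regions kept in 1. Pairs of control libraries gave 93.2 to 103.5 bp and 81.8 to 94.5 bp in the same regions.

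**Figure D5:**
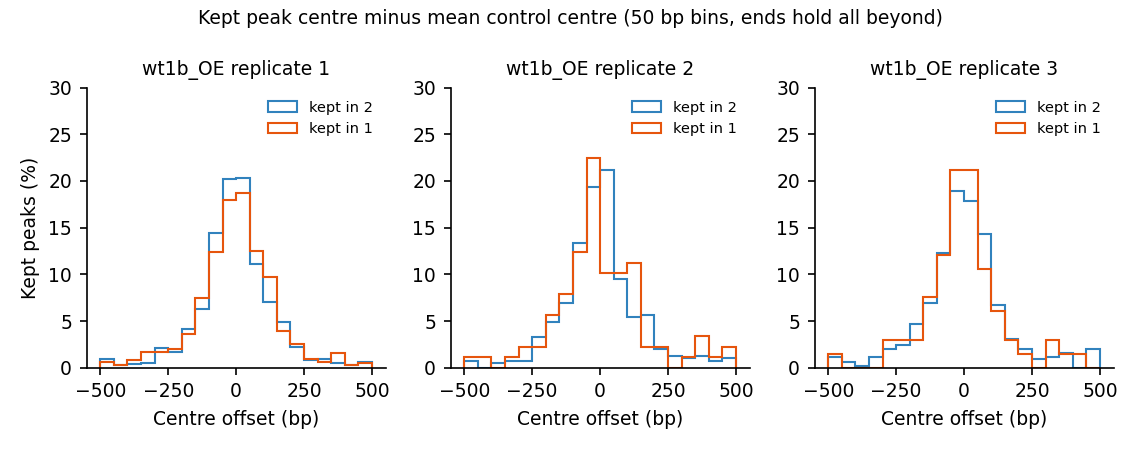
Signed distance in bp from the mean control centre to the centre of the kept wt1b_OE peak, as the percentage of kept peaks per 50 bp, for regions kept in 2 libraries (blue) and in 1 (orange). Over the 6 distributions, median absolute distances run from 65.8 to 73.5 bp.

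Not all members held a stretch shared by the strongest peaks of the 3 control libraries. Weaker control peaks were not used for this stretch and could still share a site. The kept peak is likewise the strongest of its wt1b_OE library in the region. In 72 of the 792 regions kept in 2 and 69 of the 786 kept in 1, the strongest control peaks had no stretch common to all 3 control libraries. Where they had one, its median length was 304 bp in regions kept in 2 and 274 bp in regions kept in 1. The kept peak of wt1b_OE replicate 1 covered at least 50% of this stretch in 95.3% of the regions kept in 2 and in 87.7% of those kept in 1, and missed it in 17 and 30 regions. For replicates 2 and 3, the kept peak missed the stretch in 18 and 23 regions kept in 2, and in 6 and 6 kept in 1. Any library had several peaks in 235 regions kept in 2 (29.7%) and 178 kept in 1 (22.6%). Keepers were also recounted over regions with a common stretch, as wt1b_OE libraries whose peaks together covered at least 50% of it. This gave 756 regions kept in 2 and 750 kept in 1. Regions could change grade or enter from those that all 6 libraries shared. These counts therefore do not say how many members were lost.

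Merged regions kept in 2 libraries had a median width of 804 bp (middle 50% from 671.5 to 984 bp) and those kept in 1 a median of 726.5 bp (580.2 to 892 bp). Part of this order is built in, because each further library can only widen a merged region. The widest member, chr16:36409811-36413893, spanned 4083 bp with 11 peaks and was kept by wt1b_OE replicates 1 and 3. The narrowest, chr8:24791602-24791761, spanned 160 bp and was kept by wt1b_OE replicate 1. Its peak ranked 9184 of 9310 there, and its control peaks ranked 29324, 28352 and 22925, near the end of all 3 lists. These 4 peaks were at the score limit, so their true strength was not recorded. Positions count from 1, and the submitters' processing notes name the builds GRCz11 and danRer11.

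The members of best mean control rank in each set of keepers show the range of the kept peak. Each rank is a place within its own list, and the control lists were longer, so ranks are not compared between lists. Among regions kept by wt1b_OE replicates 1 and 3, chr9:33937006-33938768 stood first. Its kept peaks were 1610 bp wide with rank 32 in wt1b_OE replicate 1 and 489 bp wide with rank 1435 in replicate 3. Its control peaks were 643, 1740 and 1464 bp wide, with ranks 842, 36 and 54. The wt1b_OE replicate 1 peak was thus among the strongest of its list, in a region where wt1b_OE replicate 2 had none.

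A region of the same grade had much weaker kept peaks. In chr5:42335086-42337511, kept by replicates 1 and 2, the wt1b_OE peaks ranked 2617 and 2182, at widths of 776 and 502 bp. The control peaks ranked 435, 107 and 515, at widths of 838, 1244 and 1268 bp. Of regions kept by replicates 2 and 3, chr17:50261410-50262509 stood first, with ranks of 3118 and 3671 in wt1b_OE replicates 2 and 3, against 1848, 185 and 535 in the control lists. Both kept peaks were thus in the weaker part of their lists.

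Among regions kept in 1 library, chr20:17758208-17759571 stood first for wt1b_OE replicate 1. The kept peak was 625 bp wide with rank 989, and the control peaks were 1011, 1031 and 1165 bp wide with ranks 204, 731 and 134. The next in this set, chr6:49925898-49926914, had a kept peak of 279 bp with rank 5271, against control peaks of 640, 1004 and 976 bp with ranks 855, 264 and 274. The third, chr1:59046071-59047113, had a kept peak of 206 bp with rank 8357, against control peaks of 775, 855 and 776 bp with ranks 414, 492 and 744. In all 3, the kept peak was narrower than each control peak. These 3 kept peaks were at the score limit, so their ranks rest on width and their true strength was not recorded.

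Single keeping by the shorter lists also reached strong peaks. chr19:43037530-43038527 was kept by wt1b_OE replicate 2 alone with a 626 bp peak of rank 329, against control peaks of 844, 608 and 861 bp with ranks 297, 1753 and 471. wt1b_OE replicate 1 had no peak there, although its list was the longest of the line. In chr15:11486947-11487905, kept by replicates 2 and 3, the peak of replicate 3 was 789 bp wide with rank 194 and that of replicate 2 was 319 bp wide with rank 3306, against control peaks of 672, 619 and 662 bp. The other regions chosen by the same rule were chr3:42972659-42974190 and chr4:1683488-1685348 (replicates 1 and 2), chr23:20176561-20177832 and chr16:36415969-36419688 (replicates 1 and 3), and chr16:21488950-21489775 (replicates 2 and 3). Those kept in 1 library were chr23:45461986-45464351 and chr23:10526216-10527087 (replicate 2), and chr16:36309831-36312238, chr11:18384986-18385662 and chr5:15819199-15819972 (replicate 3).

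Most members had no other member within 10 kb. No such count is given for other regions, so whether members formed runs more or less often than those cannot be read. Members joined wherever the gap was at most 10 kb formed 80 runs of 2 or more, which held 164 of the 1578 members. The longest run held 5. This run, at chr16:36402512-36421475, held the widest member and was singled out after its values were seen. It consisted of 6 neighbouring regions of all 3 control libraries within 19.0 kb. Of these, 4 were kept by wt1b_OE replicates 1 and 3, 1 by replicate 3 alone, and 1, at chr16:36403778-36409414 and 5637 bp wide with 20 peaks, was shared by all 6 libraries. wt1b_OE replicate 2 had a peak in the shared region and in none of the 5 members. Another region kept by replicate 3 alone, chr16:36309831-36312238, lay on the same chromosome before the run.

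Regions kept in more libraries lay closer to regions shared by all 6. The median distance to the nearest shared region was 357.7 kb for regions without a wt1b_OE peak, 297.5 kb for those kept in 1 and 240.2 kb for those kept in 2. Regions shared by all 6 libraries lay a median of 182 kb from each other. Distances to the nearest region of all 3 control libraries, of whatever grade, followed the same order, with medians of 85.0, 78.6, 73.2 and 50.4 kb for regions kept in 0, 1, 2 and 3 libraries. The share within 5 kb of a shared region was 3.74%, 6.11%, 6.19% and 13.8% for regions kept in 0, 1, 2 and 3 libraries. The share within 5 kb of any region of all 3 control libraries was 13.9%, 14.6%, 13.9% and 20.8%.

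Members were found on all 25 chromosomes. Their share of the regions of all 3 control libraries ran from 37.5% on chromosome 4 (42 of 112) and 38.9% on chromosome 24 (49 of 126) to 51.6% on chromosome 22 (48 of 93) and 52.2% on chromosome 20 (84 of 161), against 45.7% over all chromosomes. No chromosome was tested. Within the members, the share kept in 2 libraries ran from 39.3% on chromosome 14 (22 of 56) to 63.5% on chromosome 12 (33 of 52). Over all chromosomes it was 792 of 1578. These extremes of 25 chromosomes rest on few members each and were not tested either.

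The area of a kept peak was set beside that of single control peaks across the members. Over the 9 pairs of a wt1b_OE and a control library, Spearman's rho was 0.113 to 0.326 in regions kept in 2 libraries and 0.0211 to 0.267 in regions kept in 1. The 3 pairs of control libraries gave 0.198 to 0.245 in regions kept in 2 and 0.131 to 0.203 in regions kept in 1, within the ranges of the pairs between the lines. These values are across regions of the same few libraries, from 66 to 792 regions a pair. Many areas are at the score limit, which blurs their order, and the regions are not independent replicates.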

How the data were processed

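ATAC-seq libraries of 3 wt1b_OE and 3 control samples were assigned by their titles, and each received 15 PCR cycles per the labels' protocols. The authors deposited 1 peak list per library, without header, holding position, name and a peak score of whole numbers up to 1000. The submitters' processing notes name Bowtie2, Picard and Genrich among others, without roles, and peak filters are not given in the sources used here. Start and end positions were used as deposited, in bp, and printed counting from 1.

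Peaks were merged, counted and ranked with Python 3.11.15 and pandas 2.3.3. Merging gave the same number of regions as bedtools 2.31.1. It was also tested on simulated data, in which regions were well separated, so that test does not cover neighbouring or chained peaks. Where a library had several peaks in a region, the strongest was used. The list of wt1b_OE replicate 1 was also shortened by area. Named regions were the 3 of best mean control rank (by area) for each of the 6 sets of keeping libraries, plus the widest and the narrowest. Tests were exact sign-flip permutation tests over the 3 control libraries. The members, rules and lists were chosen with earlier results of these data known. Of 11 planned results, 4 needed a genome or annotation in the coordinates of the files (gene starts, gene lists, GC content and motifs) and were not run, and no sequences are shown. The planned rule that named regions near marker genes was not applied for the same reason.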

Additional observations from a re-analysis of the deposited data

How the results depend on the processing

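The counts of both grades stayed within 1.5 times of the reported 792 (kept in 2) and 786 (kept in 1) with all sequences, with central 200 bp, with wt1b_OE replicate 1 shortened, with 50% of the common stretch covered and without regions over 3000 bp. The stronger 50% of each list gave 518 kept in 2, and all lists cut to 4091 peaks gave 159 kept in 2 and 70 kept in 1. Both settings use fewer peaks, which can move regions into the set as well as out of it. Both cuts, like that of replicate 1, were made by area, a lower value for peaks at the score limit. Without each control replicate, 892 to 1207 regions were kept in 2. Over all omissions of a library, 900 to 1708 were kept in 1, where fewer libraries had to meet the rule. Without a wt1b_OE library the grade of 2 of 3 does not exist, so its count and both differences have no value. The share of members with a peak of wt1b_OE replicate 1 was 84.5% in the stronger 50% and 58.3% with replicate 1 shortened, against 87.4%. With replicate 1 shortened, replicates 2 and 3 had 45.5% and 47.9%, against 30.2% and 32.6%. The width difference stayed positive in 7 of 7 alternatives and ranged from 21.8 to 47.8 bp without each control library, against 38.3 bp. The percentile difference stayed positive in 8 of 8 and ranged from 7.32 to 8.28 without each control library, against 6.96. With 3 control libraries these tests allow no p-value under 0.25. Each sign-flip test used the differences between the grades within the same control library, and so was paired by library. Between the lines, no paired analysis was possible because no test compares the wt1b_OE with the control libraries. Alternatives for gene starts, GC content and motifs were not run.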
